A study of Mus musculus with 18 samples.

Results

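The 9 genes that the muscle field groups as the FoxO and atrophy ligase axis were followed across vehicle, weekly and daily prednisone. They were taken as a list of names, by a rule that holds no threshold on a measured value, though earlier results of these data were known. The list held the ubiquitin ligase genes Trim63, Fbxo32, Fbxo30, Fbxo21, Nedd4 and Traf6, and the transcription factor genes Foxo1, Foxo3 and Foxo4. All 9 were found among the 43430 Ensembl identifiers of the count table, and all 9 passed the filter on low counts that left 13596 genes for testing. The libraries came from quadriceps myofibers of 18 C57BL/6 mice, 1 library per mouse, with 3 mice in each of 6 groups. The groups were male and female mice given vehicle, prednisone once a week, or prednisone every day. The labels name no transgene or deletion in any group. The mice were young adults. The vehicle was DMSO in buffered saline, weekly mice received it on the days without prednisone, and the last weekly prednisone dose was given days rather than hours before the muscle was taken. Prednisone is a synthetic glucocorticoid, and the myofibers were what a cell strainer held back after collagenase digestion, so cells lying between fibers can be present.

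Muscle atrophy is driven in large part by the ubiquitin-proteasome system, in which ligases attach ubiquitin to chosen proteins and so mark them for destruction. Trim63 encodes MuRF1, a RING ligase that acts on sarcomeric proteins, and Fbxo32 encodes atrogin-1, the F-box subunit of an SCF ligase; both are the standard transcript markers of atrophy. Fbxo30 (MUSA1) and Fbxo21 (SMART) encode further F-box subunits described in wasting muscle, Nedd4 encodes a HECT ligase, and Traf6 encodes a RING ligase that builds non-degradative ubiquitin chains in signalling. FoxO factors are transcription factors held in the cytoplasm when AKT phosphorylates them, and in the nucleus they activate Trim63, Fbxo32 and other atrophy genes. The glucocorticoid receptor can also act at these genes, which is why glucocorticoids are a classic cause of atrophy.

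The coordinates of the deposited table place Trim63 on chr4:134315120-134329629 (plus strand, mm10), Fbxo32 on chr15:58175879-58214892 (minus), Fbxo30 on chr10:11281330-11298052 (plus), Fbxo21 on chr5:117976770-118010191 (plus) and Nedd4 on chr9:72662346-72749852 (plus). Traf6 lies on chr2:101678429-101701669 (plus), Foxo1 on chr3:52268336-52353221 (plus), Foxo3 on chr10:42181841-42276755 (minus) and Foxo4 on chrX:101254528-101260873 (plus). An exon of Fbxo32 overlaps the antisense gene Gm15943, which held 1095 counts over all 18 libraries against at least 2597 for Fbxo32 in every library, and Foxo1 overlaps the antisense gene Gm20402, which held 0 counts. The strand setting of the counting is not given in the sources used here, so how reads lying in these overlaps were assigned is not known.

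The 250 bases before the start were available from RefSeq (GRCm38.p6, the build of mm10) for 7 of the 9 genes, in 8 windows because Nedd4 has 2; Fbxo32 and Foxo4 had no entry. They are shown for 3 genes because FoxO factors and the glucocorticoid receptor have short recognition words that can be looked for on both strands. The FoxO word searched was TGTTTAC and the receptor half-site was TGTTCT, each also as its reverse complement, and capitals mark any match. Trim63 is the member that held both words, Nedd4 held the half-site in its second window, and Fbxo21 is shown as a member with neither.
Trim63, plus strand, chr4:134314870-134315119: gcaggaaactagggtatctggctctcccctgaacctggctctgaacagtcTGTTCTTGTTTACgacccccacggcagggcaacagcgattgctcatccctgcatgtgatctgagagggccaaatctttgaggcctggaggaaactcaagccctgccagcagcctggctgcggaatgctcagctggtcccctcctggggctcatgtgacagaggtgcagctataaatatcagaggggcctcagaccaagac
Nedd4, second window, plus strand, chr9:72693048-72693297: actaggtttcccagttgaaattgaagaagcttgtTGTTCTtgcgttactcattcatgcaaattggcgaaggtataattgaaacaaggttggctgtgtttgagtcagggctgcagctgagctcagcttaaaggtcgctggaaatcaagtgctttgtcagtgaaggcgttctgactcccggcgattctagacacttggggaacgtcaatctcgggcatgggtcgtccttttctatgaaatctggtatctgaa
Fbxo21, plus strand, chr5:117976520-117976769: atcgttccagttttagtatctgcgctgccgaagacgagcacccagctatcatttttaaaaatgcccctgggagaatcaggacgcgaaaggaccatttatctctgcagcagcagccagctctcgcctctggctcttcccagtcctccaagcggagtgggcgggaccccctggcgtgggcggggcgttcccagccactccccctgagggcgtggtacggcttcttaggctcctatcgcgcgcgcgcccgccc

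In the Trim63 window the receptor half-site ran from 200 to 195 bases before the start and the FoxO word from 194 to 188, so that the words touched without overlapping. The half-site of Nedd4 ran from 216 to 211 bases before its second start. Neither word was found in the windows of Fbxo30, Fbxo21, Traf6, Foxo1, Foxo3 or in the first window of Nedd4. Of 32851 windows of the same length, 3.166% held the FoxO word, 16.08% the half-site and 0.691% both. The joined run TGTTCTTGTTTAC, which was looked for only after it had been seen in Trim63, occurred in 1 of the 32851 windows (0.003044%). That window is the one of Trim63 itself, so the count does not measure how rare such a run is. For some genes the paper used a receptor motif whose parts lie on both sides of a short gap. That motif was not searched for here. The letters before the Trim63 half-site, read together with its first letters, match it, and those before the Nedd4 half-site do not. How many of the windows hold that motif was not counted. A match is a string of letters and not a measured binding site, and the promoters were not assayed in these RNA libraries.

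Total counts ranged from 10506661 to 14686654 per library, and the biological coefficient of variation was 0.224. The 8 listed myofiber genes, among them Acta1, Ckm and Ttn, together took 102516 to 187774 CPM (counts scaled to the library total), and all 8 were detected in every library. The 10 adipocyte genes, such as Adipoq and Plin1, summed to between 579 and 1097 CPM in male vehicle libraries, between 1461 and 1607 CPM in female vehicle libraries, and between 1748 and 9418 CPM in female weekly libraries. Male weekly libraries ranged from 1030 to 1997 CPM, male daily ones from 1055 to 2678 CPM and female daily ones from 2562 to 6937 CPM, so that daily females did not overlap vehicle females. Fibroblast genes spanned 1032 to 3649 CPM over the libraries. Macrophage genes summed to 91.4 to 115 CPM in female weekly libraries and 39.8 to 78.8 CPM in the others. Blood genes had their lowest group medians in female daily (68.0 to 88.6 CPM) and male daily libraries (104 to 122 CPM). The male daily libraries overlapped both male vehicle (116 to 170 CPM) and female vehicle (96.5 to 175 CPM). The part of these cell types in the results was not tested. In such bulk samples fewer cells of a type and less RNA per cell cannot be told apart. Within a group, libraries 1 and 3 of female weekly stood apart from library 2 in adipocyte RNA. Library 3 of female vehicle stood apart from libraries 1 and 2 in Trim63 and Fbxo32. The weekly female value of Fbxo21 is given below with all libraries and without female weekly library 2 or 3. The female values of Trim63 and Fbxo32 against vehicle are also given without female vehicle library 2 or 3.

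Per kilobase of exon, the mean level over all 18 libraries was highest for Trim63, at 202 CPM per kb, followed by Fbxo32 at 90.5 CPM per kb. Foxo4 (36.7 CPM per kb) was the most abundant of the FoxO factors, above Nedd4 at 29.0 CPM per kb, while Foxo3 and Foxo1 lay at 4.36 and 4.35 CPM per kb. Fbxo21 (2.88), Fbxo30 (2.50) and Traf6 (1.89 CPM per kb) were the lowest. The single-library values of neighbours overlapped throughout this order except at 1 step: the lowest Nedd4 value, 23.4 CPM per kb, lay above the highest Foxo3 and Foxo1 values of 6.47 and 6.67 CPM per kb. Lengths are unions of exons, so genes expressed mainly as a short isoform are understated.

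The members also differed in how far mice of 1 group lay from each other. The median within-group coefficient of variation was 33.1% for Trim63 and 28.2% for Fbxo32, above 83.8% and 77.1% of the tested genes, whose median was 16.3%. Foxo1 followed with 22.2% and Fbxo21 with 17.3%. Nedd4 had 3.58%, and only 0.162% of tested genes varied less. Among the FoxO factors Foxo3 (9.65%) and Foxo4 (10.7%) varied less than Foxo1. A log2 fold change of Trim63 within a sex was known to about 0.52 (SE) and one of Nedd4 to about 0.12. The SE did not follow the order of this spread throughout. For daily prednisone against vehicle in males it was 0.44 for Fbxo21 and 0.27 for Foxo1.

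**Figure D1:**
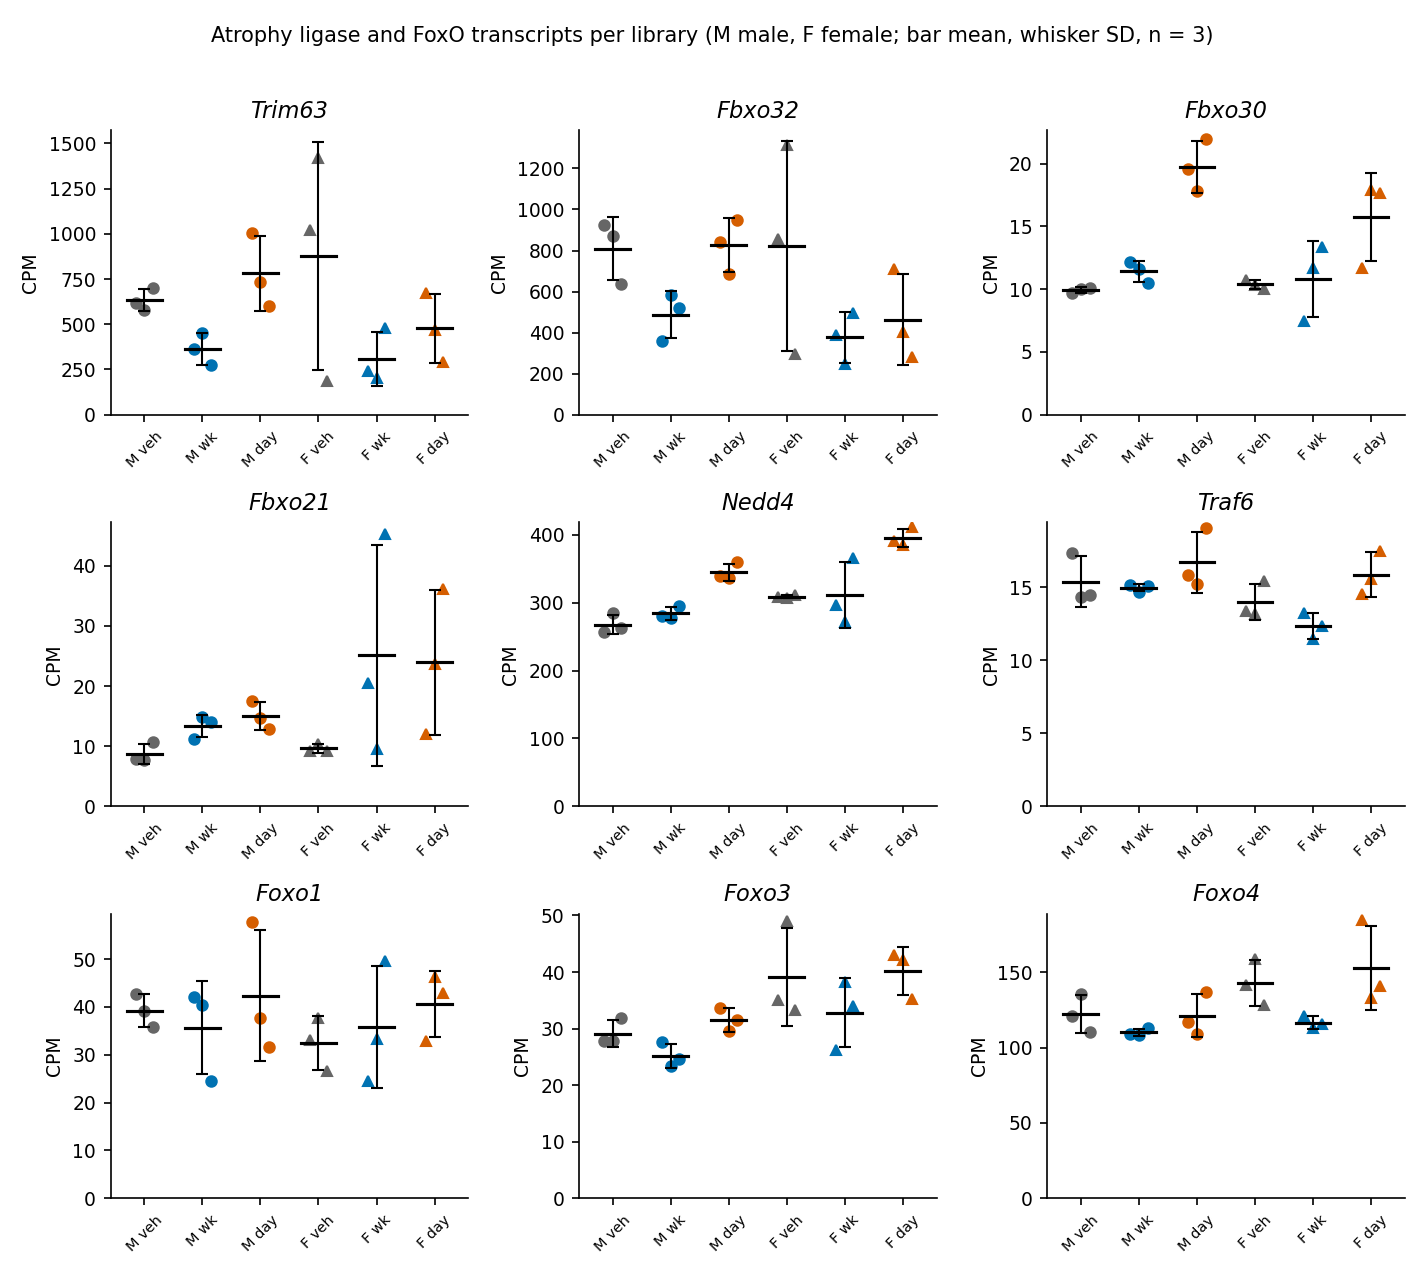
CPM of the 9 genes in each of the 18 libraries, by sex (M, F) and treatment (veh vehicle, wk weekly, day daily); points are libraries, bars group means and whiskers SD (n = 3). Fbxo30, Fbxo21 and Nedd4 are higher in every daily library than in every vehicle library of the same sex, and Trim63 and Fbxo32 spread widest in female vehicle libraries.

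Under daily prednisone 3 of the 9 genes rose when both sexes were averaged: Fbxo30, Fbxo21 and Nedd4. None of the 9 fell, against 15% of the 13596 tested genes called in either direction and 7.48% called higher; the same 3 members and 29.2% of all genes had an unadjusted p under 0.05. In daily males 1 member, Fbxo30, passed (6.46% of all genes did, 2.07% higher), and 2 members had an unadjusted p under 0.05 (22.8% of all genes). In daily females 0 members passed by edgeR's quasi-likelihood test (0.382% of all genes did), 3 had an unadjusted p under 0.05 (17.3% of all genes), DESeq2 called 1 (Nedd4) and limma-voom 0. Fbxo30, Fbxo21 and Nedd4 were the members whose 3 daily libraries all lay above the 3 vehicle libraries, in males (33.4% of all genes did not overlap, 16.4% higher) and in females (23.1% and 12.9%). Over both sexes pooled, 6 daily against 6 vehicle libraries, they again did not overlap, as held for 6.99% of all genes and for 3.34% in the higher direction.

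Under weekly prednisone 0 of the 9 genes passed in males, in females or over both sexes, and 0% of all genes did with edgeR. At an unadjusted p under 0.05 stood 0 members in males (5.71% of all genes), 3 in females (7.97%: Trim63, Fbxo32, Fbxo21) and 4 over both sexes (11%: the same with Foxo4); DESeq2 and limma-voom called 0 members in each. In males Trim63, Fbxo32 and Foxo3 were lower in every weekly than in every vehicle library and Fbxo21 and Fbxo30 higher, where 16.7% of all genes did not overlap, 8.97% lower and 7.76% higher. In females Foxo4 was lower without overlap (8.07% of all genes did not overlap, 3.13% lower), and over both sexes 0 members did not overlap (0.765%). Between the regimens, 2 of the 9 genes, Fbxo30 and Nedd4, were higher under daily than weekly prednisone over both sexes (8.17% of all genes were called, 4.30% higher). With them 6 members had an unadjusted p under 0.05 (24.1% of all genes), and over the pooled sexes 0 members did not overlap (3.81%, 2.19% higher). Within males 0 members and 0% of all genes passed with edgeR, 2 had an unadjusted p under 0.05 (13.5%), DESeq2 called 1 and limma-voom 0. Within females 0 members and 0% of all genes passed, 4 had an unadjusted p under 0.05 (17.7%), DESeq2 called 1 and limma-voom 0. All 9 members had a higher fitted mean under daily than weekly prednisone in males and over both sexes and 8 of 9 in females, where 50.7%, 47.6% and 46.1% of all genes did. In males 6 members were higher without overlap (24.5% of all genes did not overlap, 11.9% higher) and in females 3 (17.2% and 9.83%). Comparisons with vehicle share the vehicle libraries, and those of daily and weekly prednisone share the daily and weekly libraries. How many of all genes DESeq2 called in daily females, and between the regimens within each sex, is given in the last section.

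**Figure D2:**
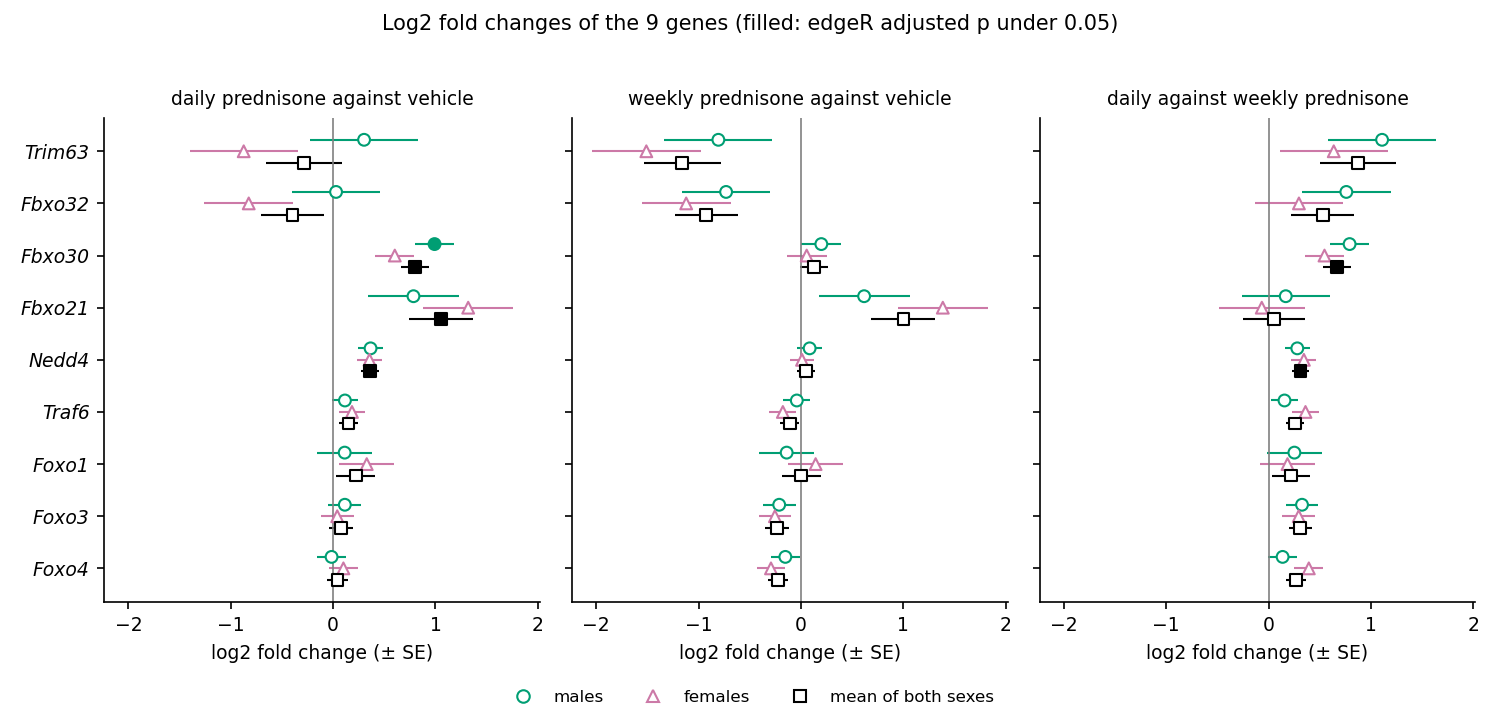
Log2 fold change (horizontal axis, ± SE) of the 9 genes in 3 comparisons, for males, females and the mean of both sexes; filled symbols have an edgeR adjusted p under 0.05. Filled symbols are Fbxo30 in males and Fbxo30, Fbxo21 and Nedd4 over both sexes for daily prednisone against vehicle, none for weekly prednisone, and Fbxo30 and Nedd4 over both sexes for daily against weekly.

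Trim63, the MuRF1 gene, did not pass the test in any comparison. In males it stood at 619, 580 and 700 CPM with vehicle, at 362, 452 and 272 CPM with weekly prednisone and at 1005, 736 and 601 CPM with daily prednisone. The weekly males were below all vehicle and all daily males, while daily and vehicle males overlapped. In females it stood at 1019, 1422 and 188 CPM with vehicle, at 240, 202 and 481 CPM with weekly and at 674, 469 and 292 CPM with daily prednisone. The female vehicle libraries thus spanned 7.56-fold, and all 6 treated females lay between their lowest and the other 2. The log2 fold change of daily prednisone was 0.30 (95% interval -0.81 to 1.42, adjusted p = 0.770) in males and -0.87 (-2.00 to 0.25, adjusted p = 0.416) in females. For weekly prednisone it was -0.81 (-1.93 to 0.32, adjusted p = 0.851) in males, -1.51 (-2.65 to -0.37, adjusted p = 0.434) in females and -1.16 (-1.96 to -0.36, adjusted p = 0.270) over both sexes. Between daily and weekly prednisone Trim63 differed by 1.11 on the log2 scale in males (-0.02 to 2.24, adjusted p = 0.382), by 0.64 in females (adjusted p = 0.565) and by 0.87 over both sexes (0.08 to 1.67, adjusted p = 0.165).

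Fbxo32, the atrogin-1 gene, followed a similar order and did not pass the test either. Its values in males were 923, 871 and 635 CPM with vehicle, 360, 584 and 520 CPM with weekly and 843, 686 and 950 CPM with daily prednisone. Weekly males were again below every vehicle and every daily male. In females they were 856, 1313 and 293 CPM with vehicle, 388, 249 and 496 CPM with weekly and 709, 403 and 279 CPM with daily prednisone, and all 3 female groups overlapped. Daily prednisone gave a log2 fold change of 0.03 (-0.89 to 0.94, adjusted p = 0.979) in males and -0.82 (-1.75 to 0.10, adjusted p = 0.347) in females. Weekly prednisone gave -0.73 (-1.65 to 0.19, adjusted p = 0.849) in males, -1.12 (-2.05 to -0.19, adjusted p = 0.495) in females and -0.93 (-1.58 to -0.27, adjusted p = 0.279) over both sexes. Without female vehicle library 3, in which both genes were lowest of the vehicle libraries, the weekly female values were -2.00 for Trim63 (adjusted p = 0.153) and -1.53 for Fbxo32 (adjusted p = 0.182). Without female vehicle library 2, in which both were highest, they were -1.0 and -0.63, with an adjusted p of 1 for each. The daily female values moved in the same way. They were -1.34 (adjusted p = 0.106) and -1.22 (adjusted p = 0.119) without female vehicle library 3, and -0.34 (adjusted p = 0.815) and -0.32 (adjusted p = 0.777) without library 2. Leaving out female daily library 1 gave -1.21 for Trim63 and -1.27 for Fbxo32, and leaving out female daily library 3 gave -0.62 and -0.56.

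Fbxo30, the MUSA1 gene, had the smallest adjusted p of the set and rose under daily prednisone. Male values were 9.66, 10.01 and 10.1 CPM with vehicle, 12.1, 11.6 and 10.5 CPM with weekly and 19.5, 17.8 and 21.9 CPM with daily prednisone. Every daily male lay above every weekly male, and every weekly male above every vehicle male. Female values were 10.8, 10.3 and 10.03 CPM with vehicle, 7.44, 11.7 and 13.3 CPM with weekly and 11.7, 17.9 and 17.6 CPM with daily prednisone. Daily females were above vehicle females, and 1 of them overlapped the weekly range. In daily males it was 0.99 ± 0.19 higher on the log2 scale (SE, adjusted p = 0.0109), a 1.99-fold rise, and over both sexes 0.80 ± 0.14 higher (adjusted p = 0.00184). In daily females the log2 fold change was 0.60 ± 0.19 with an adjusted p of 0.126. Against weekly prednisone it was 0.67 ± 0.14 higher over both sexes (adjusted p = 0.0105). The weekly change was 0.20 ± 0.20 in males and 0.06 ± 0.20 in females. The call in daily males was lost without male vehicle library 1 (adjusted p = 0.0552), with the adipocyte score as a covariate (0.92, adjusted p = 0.0608), and when trends of the counts with the length and GC content of transcripts were removed from each library (0.65, adjusted p = 0.0708). Over both sexes it was kept with the trends removed (0.51, adjusted p = 0.0234) and lost with the adipocyte covariate (0.72, adjusted p = 0.0991). The call against weekly prednisone was lost with the trends removed (0.51, adjusted p = 0.0639). Within females it stood at 0.55 ± 0.19 against weekly prednisone (adjusted p = 0.155). With the replicate number of the labels as a block in the female daily and weekly libraries it stood at 0.55 with an adjusted p of 0.0307. That block was chosen only after same-numbered libraries of these groups had been seen to deviate together. The labels do not say that the numbers stand for a shared batch.

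Fbxo21, the SMART gene, rose under daily prednisone over both sexes, and its correlation with adipocyte RNA did not pass after adjustment. In males it stood at 7.81, 7.75 and 10.6 CPM with vehicle, 11.3, 14.8 and 14.1 CPM with weekly and 17.5, 14.6 and 12.8 CPM with daily prednisone. In females it stood at 9.23, 10.4 and 9.22 CPM with vehicle, 20.5, 9.48 and 45.3 CPM with weekly and 12.1, 23.7 and 36.1 CPM with daily prednisone. Treated males lay above vehicle males in both regimens, and of the treated females 1 weekly library fell within the vehicle range. It rose by 1.05 ± 0.31 on the log2 scale under daily prednisone over both sexes (adjusted p = 0.0336), where males alone had 0.79 ± 0.44 (adjusted p = 0.309) and females alone 1.32 ± 0.44 (adjusted p = 0.138). The call was kept in 3 of the 12 fits that left out 1 library (without male vehicle 3, male daily 3 or female daily 1), and in the other 9 the adjusted p reached at most 0.0922. It was also lost with limma-voom (adjusted p = 0.0655) and with no filter on low counts (adjusted p = 0.0855). The same held with the length and GC trends removed and with the adipocyte score as a covariate. Weekly prednisone gave 1.003 ± 0.31 over both sexes (adjusted p = 0.255) and 1.39 ± 0.44 in females (adjusted p = 0.349), and daily against weekly gave 0.05 ± 0.30 (adjusted p = 0.948). Without female weekly library 2, the library with the least adipocyte RNA of its group, the weekly female value was 1.74 with an adjusted p of 0.0238, and without library 3, the library with the highest Fbxo21, it was 0.65 with an adjusted p of 1.

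The libraries with the most Fbxo21, female weekly 3 and female daily 3, also had the highest adipocyte score, the mean log2 CPM of the 10 adipocyte genes. Across the 18 libraries, with group means removed, Fbxo21 and this score gave Pearson's r = 0.888 (2-sided permutation test within groups, p = 0.00549, adjusted over 63 relations 0.0827) and Spearman's rho = 0.814 (p = 0.00390, adjusted 0.0740). The r was 0.758 without the 2 libraries farthest from the median score, 0.660 in males and 0.938 in females. Nedd4 gave r = 0.677 with the same score, and 0.186 without the 2 farthest libraries. With the score as a covariate the daily log2 fold change of Fbxo21 over both sexes was -0.20 (adjusted p = 0.711) and the weekly female one -0.24 (adjusted p = 0.9999). All 10 adipocyte genes had a count in every library except 1 gene in female vehicle libraries. The score was higher in every treated library than in every vehicle library of its sex. In males the highest vehicle score was 4.32 and the lowest treated one 5.22, in females 4.56 and 4.997. A covariate that follows the treatment in this way cannot separate adipocyte RNA from prednisone, for Fbxo21 or any other member. The part of these cells in the Fbxo21 values was not tested otherwise.

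**Figure D3:**
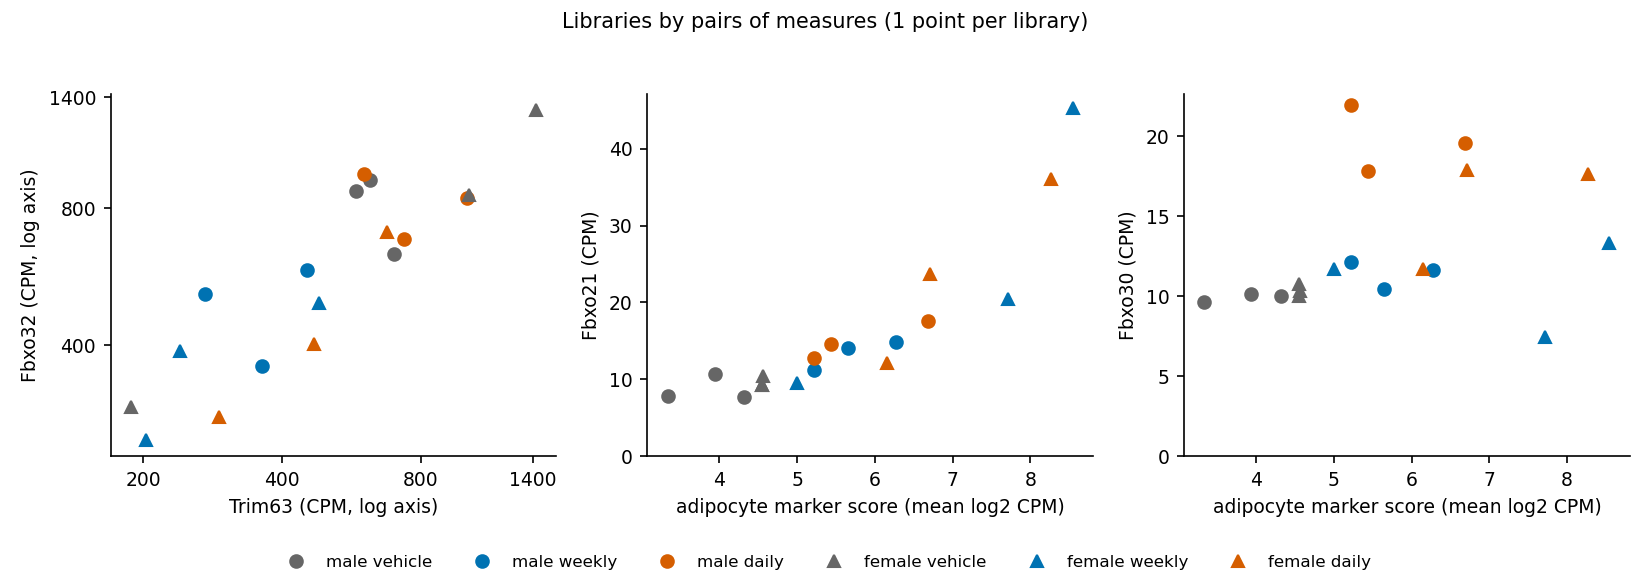
Left, Fbxo32 against Trim63 CPM on log axes; middle and right, Fbxo21 and Fbxo30 CPM against the adipocyte marker score (mean log2 CPM of 10 genes); each point is 1 of 18 libraries, circles male and triangles female, colored by treatment. Fbxo21 climbs with the score up to 45.3 CPM in a female weekly library, while Fbxo30 is high in all 3 male daily libraries (17.8 to 21.9 CPM), whose scores lie below the highest ones.

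Nedd4 was the steadiest member and rose by a small amount under daily prednisone. Male values were 257, 284 and 262 CPM with vehicle, 280, 277 and 295 CPM with weekly and 339, 336 and 359 CPM with daily prednisone. Female values were 308, 307 and 311 CPM with vehicle, 296, 272 and 366 CPM with weekly and 391, 384 and 411 CPM with daily prednisone. In each sex the daily libraries lay above all others. The daily rise over both sexes was 0.36 ± 0.09 on the log2 scale (adjusted p = 0.0108), where males alone had 0.37 ± 0.12 (adjusted p = 0.0808) and females alone 0.36 ± 0.12 (adjusted p = 0.143), and against weekly prednisone it was 0.31 ± 0.09 (adjusted p = 0.0356). The daily call was kept in all 12 fits that left out 1 library. The call against weekly prednisone was kept without male weekly 3, female weekly 2, female weekly 3 or female daily 1 and lost without any of the other 8 libraries, where the adjusted p was 0.0505 to 0.0807. That call was also lost with no filter (adjusted p = 0.0661), with the compared groups alone (adjusted p = 0.102) and with the trends removed (0.19, adjusted p = 0.393). The weekly change was 0.05 ± 0.09 over both sexes (adjusted p = 0.879). With length and GC trends removed the daily value was 0.17 (adjusted p = 0.354), and with the adipocyte covariate it was 0.20 (adjusted p = 0.439).

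Traf6 stood between 11.5 and 19.1 CPM in all 18 libraries and did not pass in any comparison. Female weekly values (13.3, 11.5 and 12.3 CPM) were below all female daily values (14.5, 15.6 and 17.5 CPM), a log2 difference of 0.36 ± 0.13 (adjusted p = 0.166). Male daily values (15.9, 15.2 and 19.1 CPM) also lay above male weekly values (15.1, 14.7 and 15.1 CPM), by 0.16 ± 0.13 (adjusted p = 0.667).

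None of the 3 FoxO factor genes passed the test in any comparison. Foxo1 had the widest range of them, from 24.5 CPM in a male weekly library to 57.8 CPM in a male daily library, and overlapped in all comparisons. Its male values were 42.7, 39.2 and 35.7 CPM with vehicle, 42.0, 40.4 and 24.5 CPM with weekly and 57.8, 37.6 and 31.7 CPM with daily prednisone. The daily log2 fold change over both sexes was 0.22 ± 0.19 (95% interval -0.18 to 0.62, adjusted p = 0.484).

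The mean levels of Foxo3 and Foxo4 were lowest in the weekly group of each sex, though neither gene passed the test. Foxo3 values were 27.7, 27.8 and 31.9 CPM in vehicle males, 27.5, 23.3 and 24.5 CPM in weekly males and 33.6, 29.5 and 31.4 CPM in daily males. Females had 34.97, 49.0 and 33.3 CPM with vehicle, 26.1, 38.2 and 34.1 CPM with weekly and 43.1, 42.2 and 35.2 CPM with daily prednisone. Weekly males did not overlap the other male groups, while the female groups overlapped. Between daily and weekly prednisone over both sexes Foxo3 differed by 0.31 ± 0.11 on the log2 scale (adjusted p = 0.0995), and by 0.39 without female weekly library 2 (adjusted p = 0.0403). It differed by -0.23 ± 0.11 between weekly prednisone and vehicle (adjusted p = 0.466) and by 0.42 ± 0.16 between female and male vehicle libraries (adjusted p = 0.338, where 0.765% of all genes and 0 members were called by edgeR, 1 member and 10.4% of all genes had an unadjusted p under 0.05, and DESeq2 and limma-voom called 0 members).

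Foxo4 female values were 142, 159 and 128 CPM with vehicle, 121, 113 and 116 CPM with weekly and 185, 133 and 141 CPM with daily prednisone. The weekly females lay below every vehicle and every daily female, with a log2 fold change of -0.29 ± 0.14 for weekly prednisone against vehicle (adjusted p = 0.630) and of 0.39 ± 0.14 for daily against weekly (adjusted p = 0.162). Its male values were 121, 136 and 110 CPM with vehicle, 109, 108 and 113 CPM with weekly and 117, 109 and 137 CPM with daily prednisone, and they overlapped. Over both sexes Foxo4 differed by 0.26 ± 0.10 between daily and weekly prednisone (adjusted p = 0.108).

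Male and female responses were compared by the difference of their log2 fold changes. For both the daily and the weekly response 0 members and 0% of all genes passed with edgeR, 0 members had an unadjusted p under 0.05 (4.69% and 2.63% of all genes did), and DESeq2 and limma-voom called 0 members. For Trim63 the female daily response minus the male one was -1.18 (95% interval -2.76 to 0.41) and for Fbxo32 it was -0.85 (-2.15 to 0.44). With 3 mice a group both intervals included 0 and differences of more than 2 on the log2 scale. Without female vehicle library 2 the differences were -0.66 and -0.36 and without library 3 they were -1.67 and -1.26. Without female daily library 1 that of Fbxo32 was -1.30. For Fbxo30 the difference was -0.39 (-0.96 to 0.19) and for Fbxo21 0.53 (-0.79 to 1.86) in the daily response.

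Variation from mouse to mouse was compared between members. With group means removed, log2 CPM of the 36 pairs of members was correlated over the 18 libraries, and 0 pairs passed after adjustment over the 36 (2-sided permutation test within groups). Trim63 and Fbxo32 gave Pearson's r = 0.849 (permutation p = 0.00708, adjusted 0.127) and Spearman's rho = 0.709 (permutation p = 0.0229, adjusted 0.412). The r was 0.651 without the 2 libraries farthest from the median, 0.961 in females and -0.125 in males, so the relation was seen in the female libraries. Fbxo32 and Foxo4 gave r = 0.700 (permutation p = 0.00601, adjusted 0.127) and rho = 0.725 (permutation p = 0.00845, adjusted 0.304), with 0.650 without the 2 farthest libraries, 0.597 in males and 0.767 in females. Of the 63 relations between a member and a cell type score 0 passed. The lowest r values were those of Fbxo32 and Foxo4 with the fibroblast score, -0.806 (permutation p = 0.00156, adjusted 0.0652; rho = -0.783, permutation p = 0.00470, adjusted 0.0740) and -0.785 (permutation p = 0.00207, adjusted 0.0652; rho = -0.800, permutation p = 0.00241, adjusted 0.0740). They were -0.833 and -0.760 without the 2 farthest libraries. With the myofiber score Foxo4 gave r = 0.583 (permutation p = 0.00482, adjusted 0.0827) and rho = 0.721 (permutation p = 0.00220, adjusted 0.0740). Fbxo32 gave r = 0.421 with that score (permutation p = 0.0982, adjusted 0.494).

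The genes whose log2 CPM was most like a member's over the 18 libraries were ranked by Pearson's r among 7273 genes with a symbol and a mean of at least 10 CPM, as a description over libraries that share groups, depth and cell makeup. Those nearest to Trim63 were Wbp1l (r = 0.90), Fbxo32 (0.89), Tardbp (0.85), Fkbp5 (0.82), which encodes a co-chaperone and is a classic target of the glucocorticoid receptor, and Npc1 (0.81), the lysosomal cholesterol transporter. With group means removed Fkbp5 and Trim63 had r = 0.94. The other neighbours of Trim63 then had 0.92 (Wbp1l), 0.90 (Npc1), 0.85 (Fbxo32) and 0.79 (Tardbp). Nearest to Fbxo32 were Tardbp and Klhl38 (both 0.91), Trim63 (0.89), Wbp1l (0.87) and Mast2 (0.85). Nearest to Foxo1 were Ddit4 (0.75), a glucocorticoid-responsive inhibitor of mTORC1, Rgcc (0.73), Grk3 (0.71), Aplp2 (0.71) and Trp53bp2 (0.70). Nearest to Foxo3 were Zfp740 (0.86), Ncstn (0.86), Slc43a1 (0.85), Fgfr1 (0.84) and Daxx (0.82).

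Genes around the members were counted in 5 lists. These were chosen with earlier results of these data known, so the counts and medians set beside all tested genes are a description and not a test. Of 20 other ubiquitin ligase genes described in muscle, 6 rose under daily prednisone over both sexes and 0 fell (15% of all tested genes were called, 7.48% higher), with a list median log2 fold change of 0.21 against 0.02 over all tested genes. Among them were Itch (0.61 ± 0.08, adjusted p = 0.000507), a HECT ligase of the same family as Nedd4, Huwe1 (0.37 ± 0.08, adjusted p = 0.00606), Ubr2, Ubr4 and Smurf1 (0.30 to 0.39). Against weekly prednisone 6 were higher as well (8.17% of all tested genes were called, 4.3% higher), Itch, Huwe1, Ubr2 and Ubr4 among them. Under weekly prednisone 0 of the 20 passed over both sexes with edgeR, DESeq2 or limma-voom, 4 had an unadjusted p under 0.05 (11% of all genes), and the median was -0.12. In daily males 1 of the 20, Itch, passed (6.46% of all tested genes did, 2.07% higher). With length and GC trends removed, 1 of the 6 daily calls, Itch, remained, and the daily median was 0.03; with the adipocyte covariate 0 remained.

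Of 20 genes reported as FoxO targets, 2 rose and 1 fell under daily prednisone over both sexes, with a median of 0.04; 15% of all tested genes were called. Cited2, a transcriptional co-regulator, rose by 0.65 ± 0.20 (adjusted p = 0.0390) and Usp14, a deubiquitinase of the proteasome, by 0.29 ± 0.09 (adjusted p = 0.0476), while Map1lc3a, an autophagosome protein gene, changed by -0.52 ± 0.13 (adjusted p = 0.0145). With the trends removed 0 of these 3 remained called. Of 19 regulators and partners of FoxO factors, 4 rose under daily prednisone and 0 fell (7.48% of all tested genes rose), with a median of 0.16. They were the deacetylase gene Sirt1 (1.35 ± 0.26, adjusted p = 0.00389), the acetyltransferase gene Ep300 (0.59 ± 0.09, adjusted p = 0.000718), and the kinase genes Prkaa1 (0.38 ± 0.11, adjusted p = 0.0338) and Pdpk1 (0.30 ± 0.09, adjusted p = 0.0423). Sirt1 stood at 28.8 ± 4.04 CPM in daily and 10.99 ± 1.71 CPM in vehicle males, and at 29.2 ± 16.9 and 11.8 ± 1.96 CPM in daily and vehicle females (SD, n = 3). Sirt1 and Ep300 remained called with the trends removed, and Ep300 alone with the adipocyte covariate.

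Of 14 genes for ubiquitin and its handling, 3 fell under daily prednisone and 1 rose (15% of all tested genes were called), with a median of -0.16. Among those that fell were the ubiquitin precursor genes Rps27a (-0.75 ± 0.12, adjusted p = 0.00151) and Ubb (-0.32 ± 0.10, adjusted p = 0.0349), and the conjugating enzyme gene Ube2d3 rose (0.48 ± 0.13, adjusted p = 0.0210). Rps27a also encodes a ribosomal protein, and these 3 genes were named after their values were seen. With the trends removed Rps27a alone of the called genes of this list remained called. Of 12 genes for the glucocorticoid receptor and its targets, 2 rose, Klf9 (0.61 ± 0.13, adjusted p = 0.00565) and Zbtb16 (0.56 ± 0.15, adjusted p = 0.0190), with a median of 0.21, where 7.48% of all tested genes rose and 15% were called. Fkbp5 was 1.03 ± 0.30 higher under daily than weekly prednisone (adjusted p = 0.0460) and changed by 0.42 ± 0.30 under daily prednisone against vehicle (adjusted p = 0.378). Under weekly prednisone over both sexes 0 genes of these 4 lists passed with edgeR, DESeq2 or limma-voom, and those with an unadjusted p under 0.05 numbered 3 FoxO targets, 1 regulator, 5 genes of ubiquitin handling and 0 of the glucocorticoid list (11% of all genes). With the trends removed Klf9 remained called under daily prednisone and Zbtb16 between daily and weekly prednisone.

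**Figure D4:**
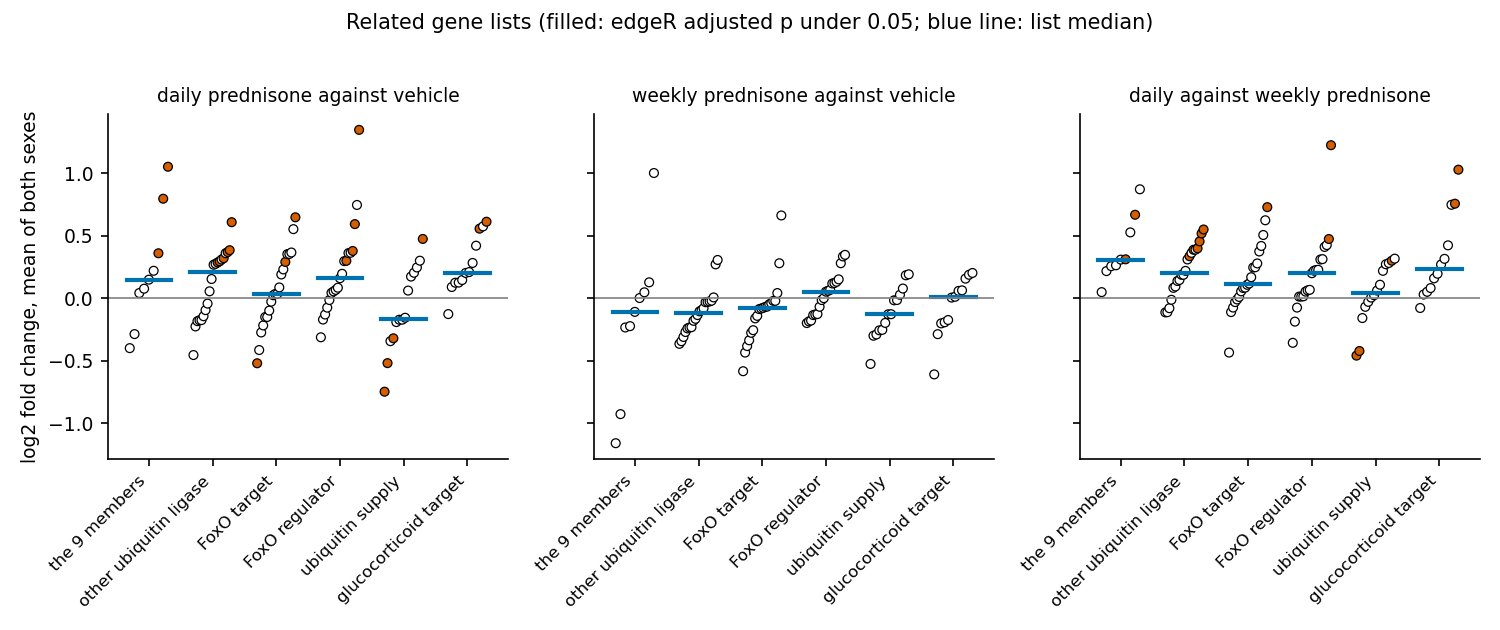
Log2 fold changes (vertical axis, mean of both sexes) of the 9 members and of the genes of 5 related lists in 3 comparisons; each point is 1 gene, filled where the edgeR adjusted p is under 0.05, and blue lines are list medians. Filled points are spread over all lists for daily prednisone against vehicle and absent for weekly prednisone, where Trim63 (-1.16), Fbxo32 (-0.93) and Fbxo21 (1.003) lie farthest from 0 among the members.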

How the data were processed

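Myofibers were isolated from quadriceps muscle and their polyA RNA was sequenced in 18 libraries, 1 per mouse, with 3 male or 3 female mice in each treatment group, so that replicates are separate animals. The authors deposited raw read counts per Ensembl gene for all libraries in 1 table with gene coordinates. The submitters' processing notes list TopHat2 2.1.0, Bowtie2 2.2.6 and HTSeq, and the builds mm10 and mm9; the methods name mm10 and the gene starts fit GRCm38. The annotation release and the strand setting are not given in the sources used here. Symbols were matched for 42462 of 43430 identifiers.

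Counts were scaled by TMM and fitted with edgeR 4.0.16 (R 4.3.3; robust quasi-likelihood, 6 group means over all 18 libraries, minimum count of 10 in the expression filter), and p-values were adjusted by Benjamini-Hochberg over 13596 genes with a threshold of 0.05. Standard errors are the log2 fold change divided by the square root of F, and 95% intervals use the t quantile with edgeR's residual degrees of freedom. CPM values use TMM-scaled library sizes, and levels between genes were compared per kilobase of the union of exons (GENCODE M21), because the deposited length adds up the exons of all transcripts for 30913 of the 33497 genes whose ends match. Correlations used log2 CPM with a prior count of 2, group means removed, and 100000 permutations within groups. The fit was tested on simulated data.

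The members and the related lists were chosen with earlier results of these data known. All 9 members are named; of the lists, at most 6 genes each (some called genes are not reported here by name), those called in the most of 9 treatment comparisons, and for Trim63, Fbxo32, Foxo1 and Foxo3 the 5 genes of highest correlation. Alternatives were DESeq2 1.42.0, limma-voom (limma 3.58.1), DESeq2 size factors, no filter and a stricter one (minimum count 100, 1 CPM), the compared groups alone, a replicate block, mitochondrially encoded genes left out, an adipocyte score covariate, each library left out, and removal in each library of trends with the length and GC content of transcripts (splines of 5 degrees of freedom, 13529 genes). Libraries carry numbers in the labels. Same-numbered female daily and weekly libraries deviated together (correlations 0.50, 0.48 and 0.44 for numbers 1, 2 and 3), and in the other comparisons the correlations ran from -0.32 to 0.28. No library pair within a group agreed within sampling noise, and 0 columns of other samples were found.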

Additional observations from a re-analysis of the deposited data

How the results depend on the processing

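Over all settings the 9 members gave 1668 alternative values, of which 1548 kept their direction and their side of the threshold, 10 passed newly, 30 no longer passed and 80 changed sign; where a result changed, the cause was not tested. Members called in daily males were 2 with DESeq2 (Fbxo30, Nedd4), with a stricter filter (Fbxo30, Nedd4) or with the compared groups alone (Fbxo30, Fbxo21), and 0 with the adipocyte score as a covariate or with length and GC trends removed. For daily prednisone over both sexes they were 0 with the adipocyte covariate, 1 with the trends removed, and 2 (without Fbxo21) with limma-voom or no filter. For daily against weekly prednisone over both sexes they were 1 with no filter, 1 with the compared groups alone and 0 with the trends removed. DESeq2 called 1 in daily females, 1 for daily against weekly males and 1 for daily against weekly females. Leaving out 1 library gave 0 to 1 called members in daily males, 1 to 3 for daily against weekly prednisone over both sexes (3 with Foxo3, without female weekly library 2), and 0 to 1 for weekly females and for weekly prednisone over both sexes, the 1 being Fbxo21 without female weekly library 2. Counts over all genes moved more: for daily males 878 genes became 1346 with DESeq2, 1530 with the compared groups alone, 150 with the adipocyte covariate and 62 with the trends removed. For daily females 52 became 526 with DESeq2, 215 with the stricter filter, 29 with no filter, 8 with the replicate block, 2 without mitochondrially encoded genes, and 0 with the compared groups alone, the adipocyte covariate or the trends removed. For daily prednisone over both sexes 2033 became 29 and 684 with the covariate and the trends removed, for daily against weekly prednisone over both sexes 1111 became 535 with the compared groups alone and 100 with the trends removed, and DESeq2 called 152 genes in weekly females, 183 for weekly prednisone over both sexes, 204 for daily against weekly males, 512 for daily against weekly females and 235 for female against male vehicle, where edgeR called 0, 0, 0, 0 and 104. The replicate block over all groups left the number of called members as it was in every comparison (Fbxo30 in daily males 0.99, adjusted p = 0.0120). Limited to the female daily and weekly libraries, a choice made after the pairing was checked, the block gave 1 called member (Fbxo30) and 522 called genes for daily against weekly females, with Fbxo21 at 0.037, and with the trends removed as well 0 members and 10 genes, with Fbxo21 at 0.060. The removal of length and GC trends was also added after the data were seen.

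Log2 fold changes that changed sign, none of them called under the setting that changed it, were with the adipocyte covariate for daily males Trim63 -0.0072, Fbxo32 -0.095, Fbxo21 -0.27, Foxo1 -0.18 and Foxo4 0.029, for daily females Fbxo21 -0.14 and Foxo1 -0.020, for weekly males Fbxo21 -0.40 and Nedd4 -0.045, for weekly females Fbxo30 -0.032, Fbxo21 -0.24, Nedd4 -0.18 and Foxo1 -0.22, for daily against weekly females Fbxo21 0.10, for daily prednisone over both sexes Fbxo21 -0.20 and Foxo1 -0.098, for weekly prednisone over both sexes Fbxo21 -0.32, Nedd4 -0.11 and Foxo1 -0.31. With the trends removed they were for daily males Fbxo32 -0.28, Traf6 -0.17, Foxo1 -0.20 and Foxo3 -0.11, for daily females Foxo3 -0.047, for weekly males Nedd4 -0.017, for weekly females Fbxo30 -0.052 and Nedd4 -0.018, for daily against weekly males Traf6 -0.0064, for daily prednisone over both sexes Traf6 -0.072, Foxo1 -0.022 and Foxo3 -0.080, for weekly prednisone over both sexes Nedd4 -0.018 and Foxo1 -0.090. With limma-voom they were for weekly females Fbxo30 -0.0027 and Nedd4 -0.0018, for daily against weekly females Fbxo21 0.060, for weekly prednisone over both sexes Foxo1 -0.038. Foxo1 for weekly prednisone over both sexes was -0.0030 with DESeq2, -0.0034 with its size factors and -0.010 without mitochondrially encoded genes, and Foxo4 in daily males was 0.018 with no filter. Leaving out 1 library moved through 0 for daily males Fbxo32 from -0.10 to 0.15, Foxo1 from -0.18 to 0.31 and Foxo4 from -0.078 to 0.081, for daily females Foxo3 from -0.053 to 0.23 and Foxo4 from -0.060 to 0.19, for weekly males Traf6 from -0.089 to 0.057 and Foxo1 from -0.28 to 0.080, for weekly females Fbxo30 from -0.13 to 0.27, Nedd4 from -0.12 to 0.075 and Foxo1 from -0.17 to 0.35, for daily against weekly males Foxo1 from -0.038 to 0.45, for daily against weekly females Fbxo32 from -0.15 to 0.56, Fbxo21 from -0.49 to 0.67 and Foxo1 from -0.026 to 0.50, for daily prednisone over both sexes Foxo4 from -0.038 to 0.092, for weekly prednisone over both sexes Nedd4 from -0.019 to 0.081 and Foxo1 from -0.15 to 0.11, for daily against weekly prednisone over both sexes Fbxo21 from -0.16 to 0.42, for how the sexes differed in the weekly response Fbxo32 from -0.80 to 0.098 and Fbxo30 from -0.33 to 0.070.

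At 10506661 to 14686654 counts per library the low counts of Fbxo30 (95 to 292), Fbxo21 (79 to 598) and Traf6 (120 to 290 per library) add counting error. In simulated counts with the spread of these libraries, 200 genes drawn at random were changed. Then 40% of 2-fold and 80% of 4-fold changes were recovered for daily males (13377 genes) and 55% and 91% for weekly females (13345 genes), so smaller changes can be missed in a single sex. The rates are averages over the drawn genes and not those of a member. They also depend on how many genes change, and 878 genes were called in the daily male data. Each group has 3 mice of 1 sex, and the cell makeup of the preparations differed between libraries.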
